A study of Mus musculus with 2 samples.

Results

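Interleukin-11 (*Il11*) and the gp130 cytokine family comprise the secreted ligands, cell-surface receptors and signalling proteins that work through the shared receptor subunit gp130. The 10 genes described are 4 ligands (*Il11*, *Il6*, *Lif* and *Clcf1*), 4 receptor genes (*Il11ra1*, *Il6st*, *Osmr* and *Lifr*), the signal transducer *Stat3* and the inhibitor *Socs3*, found by symbol among the 24532 genes of the count table and all present in the TPM tables. The set was chosen with *Il11* in view because of its difference between these same 2 libraries, so the values of this comparison are a description. In the si*Vgll3* library, TPM of 3 of the 4 ligands was higher than in siCtrl by more than 0.5 on the log2 scale. TPM of 3 of the 4 receptor genes was lower by more than 0.5. Of all 11754 genes with A > 0, where A is log2 of the mean TPM, 5.73% were higher by that much and 11.4% lower. *Il11* TPM was 21.9-fold that of siCtrl, *Il6* TPM 2.19-fold and *Clcf1* TPM 1.97-fold, while *Il11ra1*, *Il6st* and *Lifr* were at 55.4%, 62.1% and 66.8% of their siCtrl TPM. *Stat3* and *Socs3* were at 82.0% and 88.1%.

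Cardiac myofibroblasts, which deposit collagen in the injured heart, came from C57BL/6 mice 3 days after myocardial infarction (MI) and were obtained by magnetic removal of CD45-positive leukocytes. The cells, grown in DMEM with serum, were transfected with siRNA at 12.5 nM, either a control siRNA (siCtrl) or 1 siRNA against *Vgll3* (si*Vgll3*), a transcriptional cofactor gene whose role in these cells the comparison addresses, and RNA was collected after 72 h. Each condition has 1 library, with 140815237 reads assigned to genes in siCtrl against 125789276 in si*Vgll3*, so differences have no replicate check and p-values are not given. The number of animals behind each culture is not given in the sources used here.

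*Vgll3* itself had 42925 reads in siCtrl against 16524 in si*Vgll3*, or 202 and 84.0 TPM. Differences are given as M, the log2 of TPM in si*Vgll3* over TPM in siCtrl, with the 95% Clopper-Pearson interval of the read ratio in brackets, which covers counting error only and compares 2 libraries, not the conditions. TPM is a level scaled for gene length and library size, and A is log2 of the mean TPM of both libraries. A gene was called higher with M over 0.5 and lower with M under −0.5, at A > 0, a condition met by 11754 genes, whose median M was −0.05. All 10 markers of myofibroblasts were detected, and their TPM summed to 16011 in siCtrl against 13396 in si*Vgll3*. Of these markers 3 were called higher and 4 lower, beside 5.73% and 11.4% of the 11754 genes. Of 11 leukocyte markers, *Ptprc*, which encodes CD45, *Adgre1*, *Itgam* and *Cd3e* had 0 reads in both libraries. Another 5 had A > 0, among them *Lyz2* with 738 and 196 reads and *Cd53* with 136 and 979, as described below.

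The gp130 cytokines act by bringing gp130, encoded by *Il6st*, together with a further gp130 molecule or a related chain. IL-6 and IL-11 bind their own alpha receptors (*Il6ra*, *Il11ra1*) and then pair gp130 molecules. The receptor complexes of LIF and CLCF1 both hold gp130 and the LIF receptor (*Lifr*), and oncostatin M uses gp130 with *Osmr* or *Lifr*. JAK kinases bound to these chains phosphorylate STAT3, which enters the nucleus and switches on genes that include *Socs3*, an inhibitor that closes the loop on gp130, while the phosphatase SHP2 links the same receptors to ERK. In the heart, fibroblasts are a known source of IL-6 and IL-11, and IL-11 is known for its action on fibroblasts in fibrosis.

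*Il11* had 124 reads in siCtrl against 2511 in si*Vgll3*, corresponding to 0.996 and 21.9 TPM. Among the 14158 genes with TPM it ranked 11753 by level in siCtrl and 5479 in si*Vgll3*. It passed the condition on A through the si*Vgll3* library, since its siCtrl TPM was under 1. M was 4.46 [4.20, 4.73], the third highest of the 11754 genes, and the interval of the ratio ran from 18.3-fold to 26.5-fold. With 1 TPM added to both values before the logarithm, M of *Il11* was 3.52. *Il11* lies on the minus strand at chr7:4772373-4782907 (GRCm38.p6, RefSeq), and its exons overlapped no other gene in the GENCODE vM21 annotation. Of the 36-base words in its transcripts, 4.62% also occurred in a transcript of another gene.

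The 3 genes with M nearest to that of *Il11* (A > 0, and 50 reads or more in the library with more) were *2610318N02Rik*, *Krt80* and *Hist1h4a*. *2610318N02Rik* had 7 and 151 reads in siCtrl and si*Vgll3* (M 4.76 [3.68, 6.10]). *Krt80*, an epithelial keratin gene, had 18 and 626 (M 5.23 [4.56, 6.00]). Both intervals overlap that of *Il11*, so the order of these genes at the top is not resolved. *Hist1h4a*, a histone gene, had 8 and 61 reads (M 3.21), 1.25 below *Il11* on the M scale. In siCtrl these 3 genes were at 0.0742, 0.159 and 0.245 TPM, so they too passed the condition on A through si*Vgll3*. The likeness is of 1 difference between 2 libraries, and *Il11* had more reads in each library than any of the 3.

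*Il6*, whose product is the founding cytokine of the family, had 7065 reads in siCtrl against 14299 in si*Vgll3*. Its level was 97.4 TPM and 213 TPM, with M 1.13 [1.09, 1.17]. In si*Vgll3* it was the most abundant of the 10 genes per length, ahead of *Il6st*. *Lif*, which encodes leukaemia inhibitory factor, had 5015 and 4990 reads. These amount to 19.3 and 20.9 TPM, M was 0.11 [0.05, 0.17], and it was the ligand that was not called. *Clcf1*, which encodes cardiotrophin-like cytokine factor 1, had 2314 and 4213 reads. Its levels were 19.4 and 38.3 TPM, with M 0.98 [0.90, 1.05]. *Clcf1* shares 311 of its 3806 exon bases with AC109138.7, an annotated gene on the same strand, so reads there could be counted for either. *Il11* was thus the lowest of the 4 ligands in siCtrl. In si*Vgll3* it was close to *Lif*, and the counting intervals of their TPM overlapped (21.0 to 22.7 and 20.3 to 21.5).

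RefSeq promoter sequences (GRCm38.p6, 250 bases before to 50 after each annotated start) were found for 9 of the 10 genes, all but *Clcf1*. The upstream 250 bases of *Il11* (the second of 2 annotated starts, chr7:4778142-4778391, minus strand), *Il6* (chr5:30012864-30013113, plus strand), *Lif* (chr11:4257318-4257567, plus strand) and *Socs3* (chr11:117969367-117969616, minus strand) are shown because they are the promoters of the 3 ligands with a sequence and of the STAT3-induced inhibitor, and hold motifs of factors named for this pathway. They are written 5′ to 3′ in lower case and end at the base before the start, with capitals marking the matches described after them.
Il11: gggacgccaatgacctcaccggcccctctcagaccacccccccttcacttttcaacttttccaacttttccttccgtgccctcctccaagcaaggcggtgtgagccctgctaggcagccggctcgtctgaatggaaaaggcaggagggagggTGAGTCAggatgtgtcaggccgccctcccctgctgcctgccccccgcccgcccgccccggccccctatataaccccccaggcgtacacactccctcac
Il6: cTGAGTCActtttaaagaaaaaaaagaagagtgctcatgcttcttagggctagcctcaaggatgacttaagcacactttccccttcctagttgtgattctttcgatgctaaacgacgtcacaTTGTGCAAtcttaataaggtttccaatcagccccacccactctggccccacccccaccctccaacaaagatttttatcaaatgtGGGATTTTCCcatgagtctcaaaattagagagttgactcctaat
Lif: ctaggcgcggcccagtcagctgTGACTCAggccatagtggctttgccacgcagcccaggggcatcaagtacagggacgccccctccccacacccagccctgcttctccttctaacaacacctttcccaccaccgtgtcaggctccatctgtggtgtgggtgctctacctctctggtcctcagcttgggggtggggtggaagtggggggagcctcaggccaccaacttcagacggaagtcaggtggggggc
Socs3: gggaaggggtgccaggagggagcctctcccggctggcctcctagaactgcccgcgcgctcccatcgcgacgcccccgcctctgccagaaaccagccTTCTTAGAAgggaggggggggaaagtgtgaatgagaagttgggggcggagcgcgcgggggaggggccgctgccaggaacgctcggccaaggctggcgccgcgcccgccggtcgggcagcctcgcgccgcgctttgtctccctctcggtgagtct

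The capitals in *Il11* and *Lif*, and the first capitals in *Il6*, are matches to the AP-1 motif TGANTCA. The match lay at −98 to −92 from the start in *Il11*, at −249 to −243 in *Il6* and at −228 to −222 in *Lif*. The second capitals in *Il6* are a match to the C/EBP motif TTGCNNAA at −128 to −121, read on the opposite strand, and the third a match to the NF-kB motif at −44 to −35. *Socs3* held the STAT motif TTCNNNGAA at −154 to −146. *Il11* (second start), *Il6* and *Lif* thus shared the AP-1 letters, although *Lif* was not called higher.

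Both strands of the 300-base windows were searched, and of all 32851 RefSeq promoter windows of that length 7.81% held the AP-1 motif, 10.8% the C/EBP motif, 1.63% the NF-kB motif and 8.30% the STAT motif. The TEAD motif GGAATG, bound by the partner factors of the VGLL family, was in 14.7% of all windows. It was found once at the second start of *Il11ra1* and 2 times at *Stat3*, and *Osmr* held AP-1 letters just inside its transcript. No match to the 5 motifs was found in the windows of the first start of *Il11* or of *Il11ra1*, of *Il6st*, or of either start of *Lifr*. The matches share no bases with each other, and a match describes letters only.

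**Figure D1:**
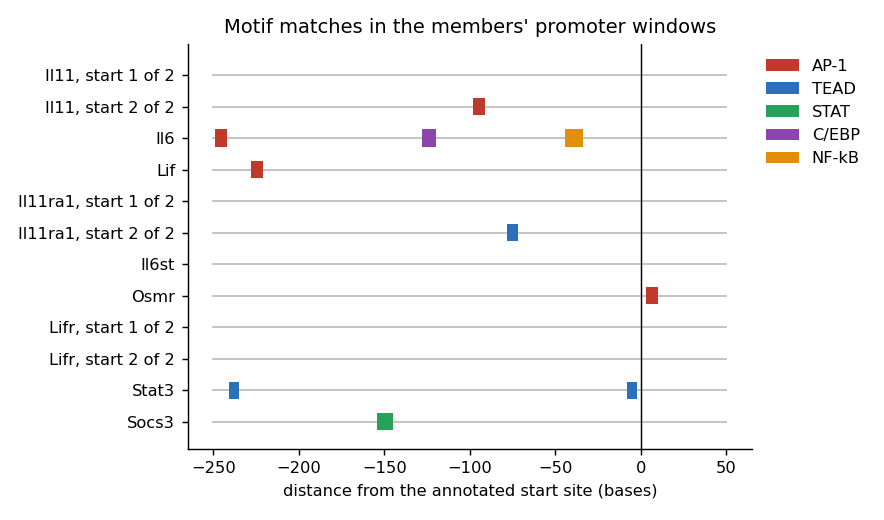
Position of each motif match, in bases from the annotated start, in the 300-base promoter windows of the genes with a RefSeq promoter, 1 line per start and 1 colour per motif. AP-1 matches lie upstream of *Il11* (second start, −98), *Il6* (−249) and *Lif* (−228), and *Socs3* holds the STAT match (−154).

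The receptor genes differed in the other direction. *Il11ra1*, the alpha receptor through which IL-11 acts, had 8507 reads in siCtrl against 4363 in si*Vgll3*, or 75.6 and 41.9 TPM (M −0.85 [−0.90, −0.80]). *Il6st*, the gp130 gene, had 107422 and 61735 reads, or 309 and 192 TPM (M −0.69 [−0.70, −0.67]). It was the most abundant of the receptor genes in both libraries. *Lifr* was the least abundant, with 5872 and 3467 reads, or 10.2 and 6.83 TPM (M −0.58 [−0.64, −0.52]). *Osmr*, the receptor chain for oncostatin M, had 33683 and 27986 reads, or 109 and 98.0 TPM. Its M was −0.16 [−0.18, −0.13], and it was the receptor gene that was not called. In RNA from whole cultures, fewer cells of a type and less RNA per cell cannot be told apart.

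*Il11ra1* has near-identical copies in the mouse genome. Of its 36-base transcript words, 54.3% also occur in *Gm13305* and 18.1% in *Il11ra2*. *Gm13305* had 0 reads in both libraries, *Il11ra2* had 0 in siCtrl and 12 in si*Vgll3*, and M of *Il11ra1* with the reads of its copies added was still −0.85. How the authors divided reads that fit several copies is not given in the sources used here, so the level of *Il11ra1* is uncertain in that respect. In GENCODE vM21, *Stat3* shares 72 exon bases with *Stat5a* on the opposite strand and *Il11ra1* shares 8 with *Ccl27a*. The library kit keeps strand, and whether the counting used it is not given.

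*Stat3*, the transcription factor that gp130 activates, had 47558 reads in siCtrl against 36121 in si*Vgll3*, or 165 and 135 TPM (M −0.29 [−0.31, −0.27]). *Socs3*, which is both a target of STAT3 and a brake on gp130, had 9863 and 8042 reads, or 56.7 and 49.96 TPM (M −0.18 [−0.23, −0.14]). Neither passed the threshold of 0.5.

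Of the 10 genes, 3 were called higher, beside 5.73% of all 11754 genes, and 3 lower, beside 11.4% of all genes. Since the set was chosen from this same comparison, nothing is read from these shares. The whole counting interval lay beyond the threshold for each of the 6, as it did in the higher direction for 3.76% and in the lower for 8.31% of all genes. At a threshold of 1, 2 of the 10 genes were called higher (*Il11* and *Il6*), beside 1.76% of all genes, and 0 lower, beside 3.27%. Of the called genes, those nearest to the thresholds were *Clcf1* (M 0.98) and *Lifr* (M −0.58), and of the genes not called the nearest were *Lif* (M 0.11) on the higher side and *Stat3* (M −0.29) on the lower side. M was above 0 in 4 of 4 ligands, with a median of 1.05, and below 0 in 4 of 4 receptor genes, with a median of −0.63. Among all 11754 genes M was above 0 in 5054 and below 0 in 6700, with a median of −0.05.

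**Figure D2:**
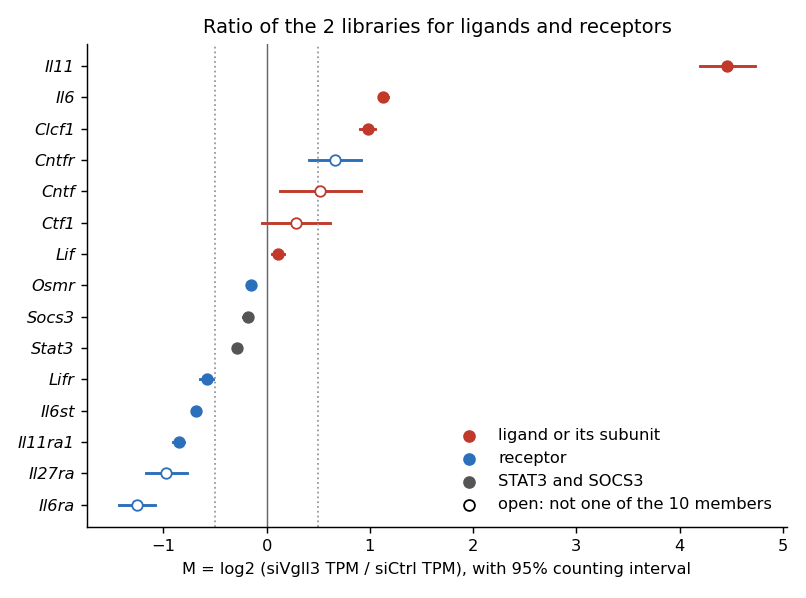
M (log2 ratio of TPM, si*Vgll3* to siCtrl) of the 10 genes and of the other family genes with a TPM value, with bars for the 95% Clopper-Pearson counting interval and dotted lines at the threshold of 0.5 in each direction. Red marks ligands and their subunits, blue receptor genes and grey *Stat3* and *Socs3*, and open circles mark genes outside the 10. Ligands lie to the right of 0 from 0.11 (*Lif*) to 4.46 (*Il11*), and the receptor genes lie to the left except *Cntfr* (0.66).

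The order of the levels per length differed between the libraries. In siCtrl it was *Il6st*, *Stat3*, *Osmr*, *Il6*, *Il11ra1*, *Socs3*, *Clcf1*, *Lif*, *Lifr* and *Il11*, from highest to lowest TPM. *Clcf1* and *Lif* could not be separated there, since the exact Poisson intervals of their TPM were 18.7 to 20.3 and 18.8 to 19.9. In si*Vgll3* the order was *Il6*, *Il6st*, *Stat3*, *Osmr*, *Socs3*, *Il11ra1*, *Clcf1*, *Il11*, *Lif* and *Lifr*. *Il11* and *Lif* were neighbours whose intervals overlapped, 21.0 to 22.7 TPM and 20.3 to 21.5 TPM. The other neighbours in both orders had intervals that did not overlap, which cover counting error only.

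The summed TPM of the 4 ligands was 137 in siCtrl and 294 in si*Vgll3*, and that of the 4 receptor genes was 504 and 338. There were 3.67 receptor mRNAs per ligand mRNA in siCtrl and 1.15 in si*Vgll3*, counted in TPM. *Il6* made up 71.0% of the ligand TPM in siCtrl and 72.4% in si*Vgll3*, while the share of *Il11* was 0.726% and 7.44%. The ratio of *Il11* to its receptor *Il11ra1* was 0.0132 in siCtrl and 0.522 in si*Vgll3*. *Il6st* per *Il11ra1*, the shared chain per specific chain, was closer between the libraries, at 4.08 and 4.57. These ratios are of mRNA, not of protein, and have no replicate check.

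Beyond the 10 genes, most of the other ligand and subunit genes listed were not detected. *Osm*, which encodes oncostatin M and lies close to *Lif* on chromosome 11, had 0 reads in both libraries, as did *Ctf2*, *Il27*, *Ebi3* and *Il31*, and 0 reads allow for up to 3. *Cntf*, which encodes ciliary neurotrophic factor, had 97 and 128 reads, or 1.25 and 1.79 TPM (M 0.52 [0.12, 0.91]). *Ctf1*, which encodes cardiotrophin-1, had 144 and 162 reads, or 1.62 and 1.96 TPM (M 0.28 [−0.05, 0.62]). Of the 11 ligand and subunit genes described, 6 had A > 0, of which 4 were called higher and 0 lower, with a median M of 0.75. Of all genes, 5.73% were called higher and 11.4% lower. The call of *Cntf* held under 3 of the 11 alternatives and was lost under 8, among them 0.1 TPM added (M 0.48), 1 TPM added (M 0.31) and the other scalings, under which its A was not above 0.

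*Il6ra*, the alpha receptor of IL-6, had 979 reads in siCtrl against 380 in si*Vgll3*, or 4.54 and 1.90 TPM. Its M of −1.25 [−1.43, −1.08] was the lowest among the family's receptor genes. *Il11ra1* mRNA outnumbered *Il6ra* mRNA 16.7-fold in siCtrl and 22.0-fold in si*Vgll3* per length, so the receptor for IL-11 was the better represented of the alpha receptors in both. *Il27ra*, a receptor chain for IL-27, had 667 and 315 reads, or 3.93 and 2.004 TPM (M −0.97 [−1.17, −0.78]). *Cntfr*, the alpha receptor of CNTF, which lies close to *Il11ra1* on chromosome 4, went the other way with 218 and 318 reads, or 1.69 and 2.68 TPM (M 0.66 [0.41, 0.92]). *Il31ra* had 0 reads in both libraries. Of 9 receptor genes, 7 had A > 0, with 5 called lower, 1 higher and a median M of −0.69. Of all genes, 11.4% were called lower and 5.73% higher. The call of *Cntfr* was lost under 4 of the 11 alternatives, among them 1 TPM added (M 0.45), and its interval reaches below 0.5. The lower calls of *Il6ra* (A 1.69) and *Il27ra* (A 1.57) were lost at A > 2, and that of *Il27ra* also at a threshold of 1.

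**Figure D3:**
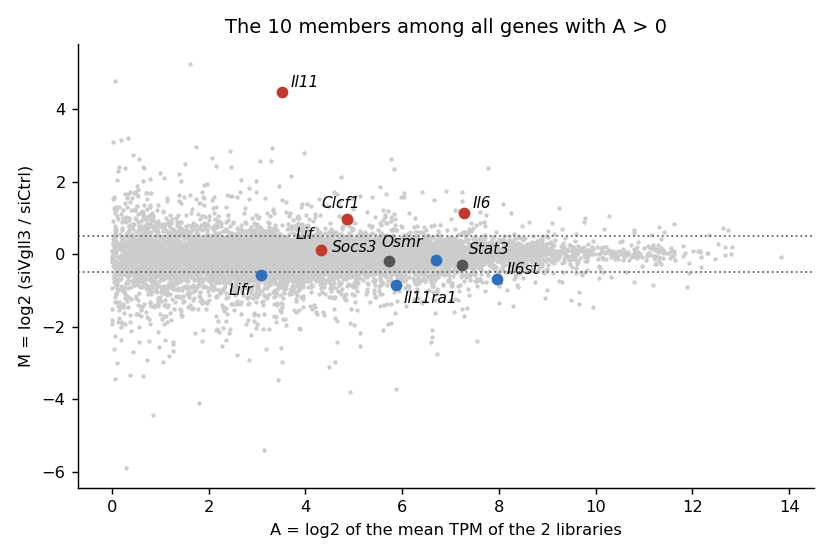
M (log2 ratio of TPM, si*Vgll3* to siCtrl) against A (log2 mean TPM) for genes with A > 0 (light grey) and the 10 described genes (red for ligands, blue for receptor genes, dark grey for *Stat3* and *Socs3*), with dotted lines at M of 0.5 in each direction. *Il11* stands near the top at M 4.46, while the receptor genes *Il6st*, *Il11ra1* and *Lifr* lie below −0.5.

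The downstream components of gp130 signalling were described by lists of genes, chosen with earlier results of these data known. Over all genes with A > 0, 5.73% were called higher and 11.4% lower, the shares to set beside the calls of each list. Of 6 genes listed as JAK kinases and other STATs, 0 were called higher and 1 lower, with a median M of −0.28. The one called lower was *Jak3*, at 2.52 and 1.59 TPM (M −0.67), with an interval of −0.86 to −0.47 that crosses the threshold. *Jak1*, the main kinase on gp130, was at 141 and 118 TPM (M −0.26), *Jak2* at 29.2 and 28.3 TPM (M −0.04) and the transcription factor gene *Stat5b* at 16.7 and 13.5 TPM (M −0.30).

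In the SHP2-ERK branch, 1 of 14 genes listed was called lower and 0 higher, with a median M of −0.10. That gene was *Ptpn11*, which encodes SHP2 and binds gp130 at the site that SOCS3 also uses. It had 42775 reads in siCtrl against 15999 in si*Vgll3*, or 120 and 48.3 TPM (M −1.31 [−1.33, −1.28]), a difference of about the size of that of *Vgll3* (M −1.27). The other 13 genes lay between the thresholds, among them the adaptor gene *Shc1* (M −0.16), the kinase gene *Map2k1* (M 0.19) and the ERK gene *Mapk3* (M −0.15).

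Among the other negative regulators, 11 of 12 had A > 0, with 1 called higher, 0 lower and a median M of −0.10. The one called higher was *Socs6*, a relative of *Socs3*, at 15.3 TPM in siCtrl and 22.7 in si*Vgll3* (M 0.57). *Socs5* (M 0.06), *Socs2* (M −0.34) and the phosphatase gene *Ptpn1* (M −0.23) were the most abundant of the list. The 4 genes for shedding of receptors from the cell surface, which makes soluble IL-6 and IL-11 receptors, included 0 calls in either direction, with a median M of −0.34. The protease genes *Adam10* and *Adam17* had M −0.22 and −0.48, and *Rhbdf1*, a partner of ADAM17, had M −0.46.

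Of 25 genes listed as known targets of STAT3, 23 had A > 0. Of these, 7 (30.4%) were called higher and 2 (8.70%) lower, beside 5.73% and 11.4% of all genes, and the median M was 0.11. *Lcn2*, which encodes lipocalin-2, was at 3.13 TPM in siCtrl and 12.7 in si*Vgll3* (M 2.02 [1.77, 2.27]), and *Cebpb*, a transcription factor gene, at 2.55 and 7.82 TPM (M 1.62 [1.41, 1.83]). The chemokine gene *Ccl2* was at 150 and 393 TPM (M 1.39 [1.35, 1.43]), and the protease inhibitor gene *Timp1* at 1363 and 2167 TPM (M 0.67). The acute-phase genes *Hp*, at 34.2 and 16.9 TPM (M −1.02), and *Serpina3n*, at 122 and 80.8 TPM (M −0.59), were the 2 called lower. *Hif1a* had M 0.05. At a threshold of 1, 3 were called higher and 1 lower, beside 1.76% and 3.27% of all genes. M thus had both signs within the list, and many of its members also respond to other pathways. Since the list was chosen with earlier results of these data known, nothing is read from its shares.

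TGF-beta is a known inducer of *Il11* in fibroblasts, and its ligand, receptor and SMAD genes held 0 higher and 2 lower calls among 10, with a median M of −0.16. The lower ones were *Tgfb3*, at 153 TPM in siCtrl and 92.4 in si*Vgll3* (M −0.73), and *Tgfb2*, at 30.7 and 20.5 TPM (M −0.58). *Tgfbr2* (M −0.24) and *Smad3* (M 0.13) were not called. These are mRNA levels, and a link between them and *Il11* was not tested. AP-1 factors held 2 higher and 0 lower calls among 7 of 8 genes, with a median M of 0.24, beside 5.73% higher and 11.4% lower of all genes. The AP-1 motif was found in the promoter windows of *Il11* (second start only), *Il6*, *Lif* and the receptor gene *Osmr*, and a link to these calls was not tested. *Fosl1* was at 21.9 and 40.9 TPM (M 0.90 [0.82, 0.97]) and *Fos* at 14.6 and 23.4 TPM (M 0.68 [0.60, 0.77]). The more abundant *Junb*, *Jund* and *Fosl2* had M 0.24, 0.04 and 0.16. *Fos* and *Junb* also stand in the STAT3 list.

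The family was set beside its most similar neighbours in function. Of 19 other receptors that signal through JAK kinases, 13 had A > 0. Of these, 0 were called higher and 0 lower, and the median M was −0.07. The most abundant were *Il4ra* (M −0.09), *Ghr* (M −0.13) and *Ifnar2* (M 0.03). Without the condition on A, 2 of 17 were called higher and 1 lower, and under CPM, TMM scaling or DESeq2 size factors 1 of 14 was called higher. Among the 7 family receptor genes 5 were called lower and 1 higher, beside 11.4% and 5.73% of all genes. Of 30 other cytokines and chemokines, 22 had A > 0, with 7 called higher, 5 lower and a median M of 0.25, against 4 higher and 0 lower among the 6 ligand and subunit genes of the family described here, *Cntf* included. The higher ones included *Cxcl3* (M 2.84), *Ccl8* (M 2.64), *Cxcl1* (M 1.44) and *Ccl7* (M 1.12), and the lower ones *Cxcl10* (M −3.35), *Il1rn* (M −1.45), *Il33* (M −1.04) and *Cxcl12* (M −0.78). *Csf1*, at 399 and 508 TPM, had M 0.35. The chemokine gene *Ccl2* and the receptor gene *Il4ra* also stand in the STAT3 list. None of the M of these cytokines reached that of *Il11*, but *Il11* was chosen for its difference in this same comparison, so nothing is read from that. With 1 library per condition, these differences between lists have no test.

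**Figure D4:**
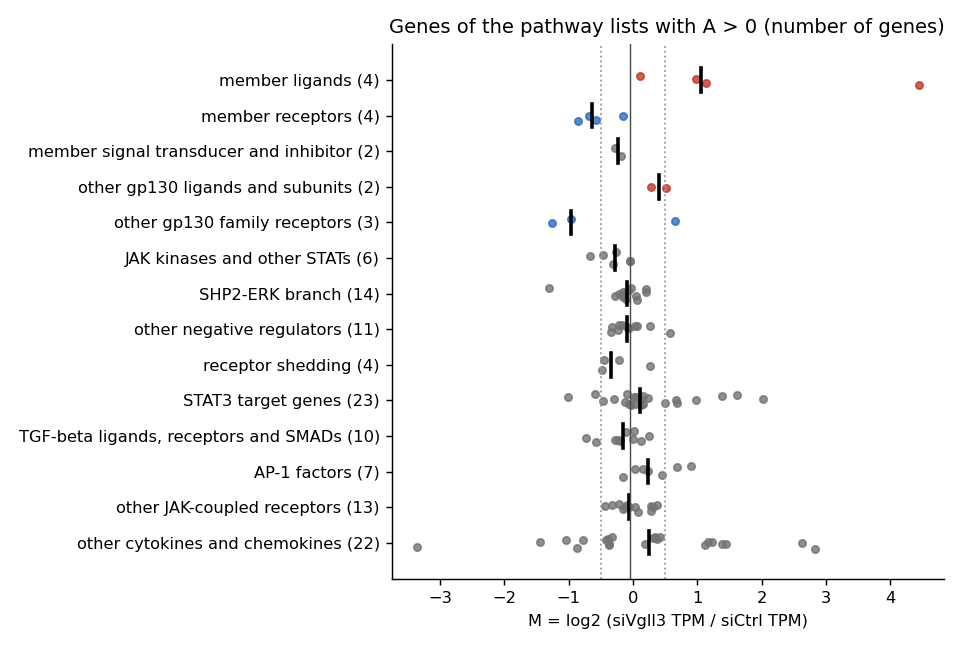
M (log2 ratio of TPM, si*Vgll3* to siCtrl) of each gene with A > 0 in each list, with a black bar at the list's median, a solid line at the median of all genes with A > 0 (−0.05) and dotted lines at 0.5 in each direction. Red marks gp130 ligands and subunits and blue gp130 family receptors. The member ligands have a median of 1.05 and the member receptors of −0.63, and the 13 other JAK-coupled receptors lie between the dotted lines.

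Markers of other cell types differed between the libraries in both directions, and their part in the results was not tested. Of the 11 leukocyte markers 5 had A > 0, with 3 called higher, 1 lower and a summed TPM of 15.7 in siCtrl and 14.4 in si*Vgll3*. Over all genes with A > 0, 5.73% were called higher and 11.4% lower. The higher markers were *Cd53*, with 136 and 979 reads or 0.760 and 5.91 TPM (M 2.96), *Cd14* (M 0.62 [0.32, 0.92]) and *Csf1r* (M 0.50 [0.29, 0.72]). The intervals of *Cd14* and *Csf1r* cross the threshold. The lower one was *Lyz2*, at 10.9 and 3.13 TPM (M −1.80). Of 5 mesothelial markers, all with A > 0, 2 were called higher (*Krt19* with M 2.56 and *Msln* with M 1.91) and 2 lower (*Upk3b* with M −1.68 and *Wt1* with M −0.67), and their summed TPM was 61.5 and 51.8. The summed TPM of 5 endothelial markers was 24.0 and 19.6, with 1 of 3 called lower, and that of 5 pericyte markers was 15.7 and 9.33, with 1 of 1 called lower. Of 6 cardiomyocyte markers, *Myh6*, *Actc1*, *Nppa* and *Ryr2* had 0 reads in both libraries and *Tnni3* had 0 and 10, while *Tnnt2* was at 60.0 and 10.4 TPM.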

How the data were processed

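RNA sequencing of 2 libraries of mouse cardiac myofibroblasts, siCtrl and si*Vgll3*, was analysed. The authors made TruSeq Stranded mRNA libraries, ran them on a NovaSeq, removed adapters, low-quality bases and reads under 36 bp with Trimmomatic, mapped reads to mm10 with HISAT2 and quantified known genes with StringTie; tool versions are not given in the sources used here. Raw read counts per gene were deposited without normalisation. TPM, scaled by the authors for gene length and library size, was deposited for 14158 genes, each in 1 table per library. The control and treated columns were assigned to groups by their labels, and no column was left out.

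M and A were computed from TPM, with nothing added before the logarithm. The study's thresholds for lower genes (M < −0.5, A > 0) were used, and their mirror image for higher genes. The study's formula for A is not given in the sources used here, and log2 of the mean TPM was assumed. The 95% Clopper-Pearson interval of each M takes the total of both libraries' reads for a gene as given. It was tried on simulated reads that varied by counting error only, as the interval assumes. That trial cannot show how it performs where cultures or libraries vary. Depth gives narrow intervals for abundant genes, and these cover counting error only. With 1 library per condition no test was made, and edgeR 4.0.16 and DESeq2 1.42.0 (R 4.3.3) gave scaling factors only. The 10 genes and all lists were chosen with earlier results of these data known, and 3 genes that belonged to the further lists are not reported here and enter no list count. Named genes were the listed family genes, the 3 most abundant of each further list with up to 3 of the highest and 3 of the lowest M past 0.5, and the 3 genes nearest to *Il11* in M. Shared exons and words came from GENCODE vM21, positions and promoters from RefSeq (GRCm38.p6, the assembly also called mm10). Alternatives were CPM, TMM scaling and DESeq2 size factors in place of TPM, 0.1 or 1 TPM added, centred M, no condition on A, A > 2, at least 10 reads in each library, a threshold of 1, the whole interval beyond 0.5 and, for *Il11ra1*, reads summed with its copies.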

Additional observations from a re-analysis of the deposited data

How the results depend on the processing

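The same 6 of the 10 genes were called, in the same directions, under 10 of the 11 alternatives. The alternatives of no condition on A, A > 2 and at least 10 reads could not change a call of the 10 genes. All of these genes pass them, with the lowest A 3.09 (*Lifr*) and the fewest reads 124 (*Il11* in siCtrl). With a threshold of 1 on M, 2 genes (*Il11* and *Il6*) were called higher and 0 lower, because no receptor gene reached −1. M of *Il11* was 3.52 with 1 TPM added, since its siCtrl level was itself about 1 TPM, and reached 4.50 from CPM. Of 91 values of M computed under alternatives for the 15 family genes with M, 0 turned sign and 22 lay outside the counting interval. CPM moved the median M of all genes by 0.0506. No paired analysis was possible because there is 1 library for each condition, and for the same reason no replicate could be left out. Depth limits *Cntf*, *Ctf1* and *Cntfr*, whose intervals reach below 0.5.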
